A study of Mus musculus with 6 samples.

Results

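Transcripts of 10 genes that the transcription factor ATF4 switches on in the integrated stress response were read on 6 Affymetrix arrays of mouse embryonic stem (ES) cells. The genes are Ddit3, Atf3, Trib3, Ddit4, Sesn2, Chac1, Asns, Psat1, Slc7a1 and Slc7a11. They were chosen by name as known genes of the pathway, with earlier results of these data in view, and a gene was read from the probe set annotated with its symbol alone. All 10 were found, each with 1 probe set, among the 19946 genes that have such a probe set. The cells are of the line A3-1, an established mouse ES cell line, grown in every group with fetal bovine serum and LIF, a cytokine that keeps ES cells undifferentiated. The untreated group had no siRNA, the siGFP group was given an siRNA against green fluorescent protein as the control, and the siLin28a group was given an siRNA against Lin28a, an RNA-binding protein of ES cells. The siRNA groups were kept for 48 h. Each group has 2 arrays, called replicate 1 and replicate 2. A single siRNA duplex was used for each siRNA group in a single cell line, and whether replicates 1 and 2 were cultured apart is not stated. A p-value here therefore reflects only how far these arrays scatter, which may be technical scatter.

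In the integrated stress response, kinases that sense amino acid shortage, misfolded protein in the endoplasmic reticulum (ER), double-stranded RNA or haem shortage phosphorylate the initiation factor eIF2alpha. Most translation slows while the ATF4 mRNA is translated more, and ATF4 then activates genes for amino acid uptake, amino acid synthesis and stress signalling. ATF4 binds with C/EBP proteins to the C/EBP-ATF response element, a composite site in the promoters or introns of many of its targets. Several of the members also answer to other factors, such as p53 for Sesn2, Ddit4 and Atf3 and NRF2 for Slc7a11.

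The promoters of the members are shown first, to describe where the letters of this element occur among them. The core of the element was searched as TGATGNAA, or TTNCATCA where it lies on the opposite strand. The windows ran from 250 bases before to 50 bases after an annotated transcript start (RefSeq, GRCm38.p6). Some genes, such as Slc7a1 and Psat1, have 2 windows. Of the 10 members 5 held the core, namely Chac1, Atf3, Asns, Slc7a11 and Trib3. Among all 27025 genes with a window, 1219 held it, a share of 4.51%, and among all 32851 windows the share was 3.97%. The stretches of these 5 members follow, 5′ to 3′ on the strand of the gene, with the match in capitals. Ddit4 is added as the member without a match whose values differ most from the others.

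Chac1, chr2:119350992-119351241, + strand: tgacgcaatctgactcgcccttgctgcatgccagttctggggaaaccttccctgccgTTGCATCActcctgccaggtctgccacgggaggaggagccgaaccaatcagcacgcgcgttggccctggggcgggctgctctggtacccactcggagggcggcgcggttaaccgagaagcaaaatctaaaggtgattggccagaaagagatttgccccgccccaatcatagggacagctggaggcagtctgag

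Atf3, chr1:191183334-191183583, - strand: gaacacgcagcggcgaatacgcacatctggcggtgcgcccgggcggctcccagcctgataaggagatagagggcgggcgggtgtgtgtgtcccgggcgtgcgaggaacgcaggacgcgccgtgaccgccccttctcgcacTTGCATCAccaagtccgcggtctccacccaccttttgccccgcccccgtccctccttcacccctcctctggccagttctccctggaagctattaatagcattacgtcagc

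Asns, chr6:7693210-7693459, - strand: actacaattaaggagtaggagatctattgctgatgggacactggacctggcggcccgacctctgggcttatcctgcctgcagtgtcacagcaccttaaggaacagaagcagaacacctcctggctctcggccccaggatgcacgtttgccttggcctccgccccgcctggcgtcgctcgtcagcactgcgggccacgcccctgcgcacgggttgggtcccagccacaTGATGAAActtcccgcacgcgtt

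Slc7a11, chr3:50443614-50443863, - strand: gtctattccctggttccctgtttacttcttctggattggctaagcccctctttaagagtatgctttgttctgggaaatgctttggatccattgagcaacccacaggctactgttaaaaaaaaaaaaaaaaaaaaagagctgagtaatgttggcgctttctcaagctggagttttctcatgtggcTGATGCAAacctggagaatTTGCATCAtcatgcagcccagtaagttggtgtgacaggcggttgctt

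Trib3, chr2:152344028-152344057, - strand: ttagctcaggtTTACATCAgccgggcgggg

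Ddit4, chr10:59951771-59952020, - strand: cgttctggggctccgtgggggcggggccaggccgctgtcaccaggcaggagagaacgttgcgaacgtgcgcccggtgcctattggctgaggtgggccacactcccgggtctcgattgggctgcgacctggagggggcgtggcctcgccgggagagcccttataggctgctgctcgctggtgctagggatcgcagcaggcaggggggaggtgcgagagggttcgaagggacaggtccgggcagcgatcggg

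Chac1 and Atf3 carried the same letters, TTGCATCA, the first at 193 to 186 bases and the second at 110 to 103 bases upstream of the annotated start. Asns carried TGATGAAA at 23 to 16 bases upstream. Slc7a11 held 2 matches in opposite orientations with 11 bases between them, TGATGCAA at 66 to 59 and TTGCATCA at 47 to 40 bases upstream, and 2 or more matches were found in 0.0851% of all genes. The match of Trib3, TTACATCA, lay at 15 to 22 bases downstream of the start. No match was found in the windows of Ddit4, Ddit3, Sesn2, Slc7a1 or Psat1, which says only that these letters are not in those windows. Matches are descriptions of sequence and not binding sites. The window of Slc7a11 lies within the annotated span of the gene (50364936 to 50499087), so its distances count from a start inside that span.

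Genes listed with the same pathway held the core often too. Both they and the members were chosen as known genes of the pathway, so their shares carry no test. The core was found in 11 of the 41 genes of the 5 pathway lists that have a window (26.8%). The aminoacyl-tRNA synthetases had it in 4 of 7 genes (Gars1, Iars1, Tars1 and Yars1), and the list of other ATF4 targets in 4 of 8 (Fgf21, Herpud1, Jdp2 and Vldlr). Got1, Slc1a4 and Nupr1 were the matches in the remaining lists. It was found in 0 of the 42 genes of 5 neighbouring lists, which hold ER chaperones, p53 targets, NRF2 targets, hypoxia genes and immediate early genes, and in 0 of 19 cell type markers.

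**Figure D1:**
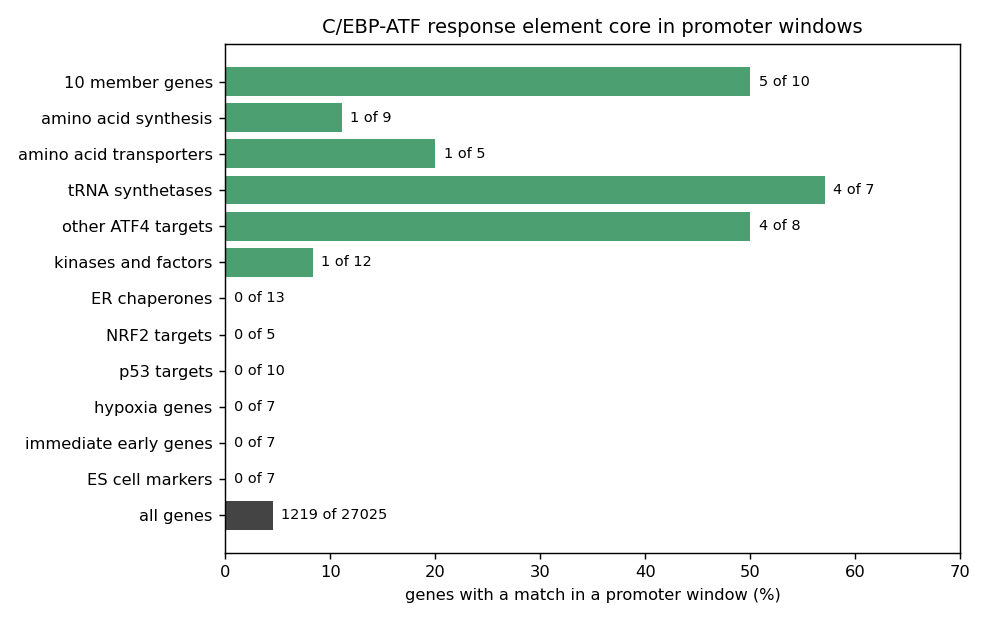
Share of genes in each list with the core of the C/EBP-ATF response element in a promoter window (%), with the count beside each bar. The members stood at 5 of 10, and all genes at 1219 of 27025.

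The arrays and labels were checked before the members were read. The median over 35556 probe sets was 5.2 or 5.3 on the log2 scale on every array. The upper quartile was 7.0 and 7.1 on siLin28a replicates 1 and 2 and 7.2 on every other array. Lin28a stood at 7.4 on both siLin28a arrays and between 9.1 and 9.4 on the others. The 8 ES cell markers, such as Pou5f1 and Nanog, lay between 7.8 and 12.7 on every array. Markers of primitive endoderm (7 genes), trophoblast (3) and mesoderm (3) stayed under 6 throughout. Of the feeder fibroblast markers 4 of 7 reached 6 or more, the highest at 7.1, and the neural marker Sox1 was the 1 of 3 that did. In bulk RNA of this kind, a change in the share of cells that express a gene and a change in the RNA per cell cannot be told apart.

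The transcription factors and the pseudokinase that tune the response come first. Ddit3 encodes CHOP, a C/EBP-family factor that is induced under prolonged stress and promotes cell death. Its log2 expression was 5.5 and 5.8 in untreated replicates 1 and 2, 6.0 and 5.7 in siGFP, and 6.0 and 5.8 in siLin28a. The 3 groups overlapped, and the values spanned 0.5 in all. Atf3, a stress-induced factor of the ATF family, was at 5.5 on both untreated arrays, 6.3 and 5.5 in siGFP, and 5.7 and 5.2 in siLin28a. A single array, siGFP replicate 1, stood above the rest. Trib3, a pseudokinase that restrains ATF4 and CHOP, was at 7.2 and 7.7 in untreated cells, 8.1 and 7.6 in siGFP, and 7.6 and 7.3 in siLin28a. Here too siGFP replicate 1 was highest and the groups overlapped.

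Ddit4 and Sesn2 both restrain mTORC1, the kinase complex that drives growth. Ddit4 (REDD1) was at 7.1 and 7.0 in untreated cells, 8.2 and 7.7 in siGFP, and 8.2 and 8.0 in siLin28a. It was the only member with all 4 siRNA arrays above both untreated arrays, an arrangement seen in 4.11% of the 23410 probe sets tested. The gap of 0.6 between the lowest siRNA array and the highest untreated one was matched or passed by 5 probe sets (0.0214%), Ddit4 among them. The cut is Ddit4's own gap, so this share describes its rank and is no test. Ddit4 had a log2 fold change of 0.90 (SE 0.19, adjusted p 0.961 by limma, 2 arrays a group) in siGFP against untreated cells and 1.05 (SE 0.19, adjusted p 0.535 by limma) in siLin28a against untreated cells. Neither passed the threshold of 0.05, and leaving out any 1 array gave between 0.65 and 1.15 for the first and between 0.95 and 1.15 for the second. Between siLin28a and siGFP it differed by 0.15 (SE 0.19, adjusted p 0.953 by limma), with overlapping arrays. Sesn2, a leucine sensor and antioxidant protein, was at 8.0 and 8.7 in untreated cells, 8.8 and 8.3 in siGFP, and 8.5 on both siLin28a arrays. The untreated arrays alone spanned nearly the whole range of this gene.

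Among the enzymes, only Chac1 was highest on siGFP replicate 1 alone. Chac1, a gamma-glutamylcyclotransferase that degrades glutathione, was at 6.8 and 6.9 in untreated cells, 8.2 and 6.7 in siGFP, and 7.2 and 6.6 in siLin28a. The difference of 1.5 within siGFP was the largest of any member within a group, and 10 of the 23410 probe sets (0.0427%) had one as large in that direction. Here too the cut is the gene's own value, and the share is no test. Without siGFP replicate 1 the log2 fold change of Chac1 in siGFP against untreated cells went from 0.60 (SE 0.47) to −0.15. Asns, which makes asparagine from aspartate, was at 11.6 and 11.8 in untreated cells, 11.8 and 11.5 in siGFP, and 11.5 and 11.1 in siLin28a. Both siLin28a arrays lay below both untreated arrays, by 0.40 on average (SE 0.19, adjusted p 0.783 by limma). Psat1, an aminotransferase of serine synthesis, was at 10.7 and 11 in untreated cells, 10.9 and 10.6 in siGFP, and 10.8 and 10.4 in siLin28a. Its largest difference between groups was −0.25 (SE 0.20, adjusted p 0.861 by limma), for siLin28a against untreated cells, and the groups overlapped.

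The last 2 members carry amino acids into the cell. Slc7a1, the transporter of arginine and lysine known as CAT-1, was at 7.8 and 8.3 in untreated cells, 8.4 and 7.8 in siGFP, and 7.7 and 7.4 in siLin28a. It was the only member with both siLin28a arrays below every array of both other groups. The log2 fold change was −0.55 (SE 0.26, adjusted p 0.953 by limma) against siGFP and −0.50 (SE 0.26, adjusted p 0.803 by limma) against untreated cells, and neither passed. Leaving out 1 array moved the first between −0.85 (without siGFP replicate 2) and −0.25 (without siGFP replicate 1), and the second between −0.75 (without untreated replicate 1) and −0.25 (without untreated replicate 2). Slc7a11, the cystine and glutamate exchanger xCT, was at 2.9 and 3.7 in untreated cells, 3.6 and 3.3 in siGFP, and 3.5 and 3.4 in siLin28a. These values lie at or under the lower quartile of each array, which was 3.7 or 3.8. The 2 untreated arrays enclosed all the others.

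**Figure D2:**
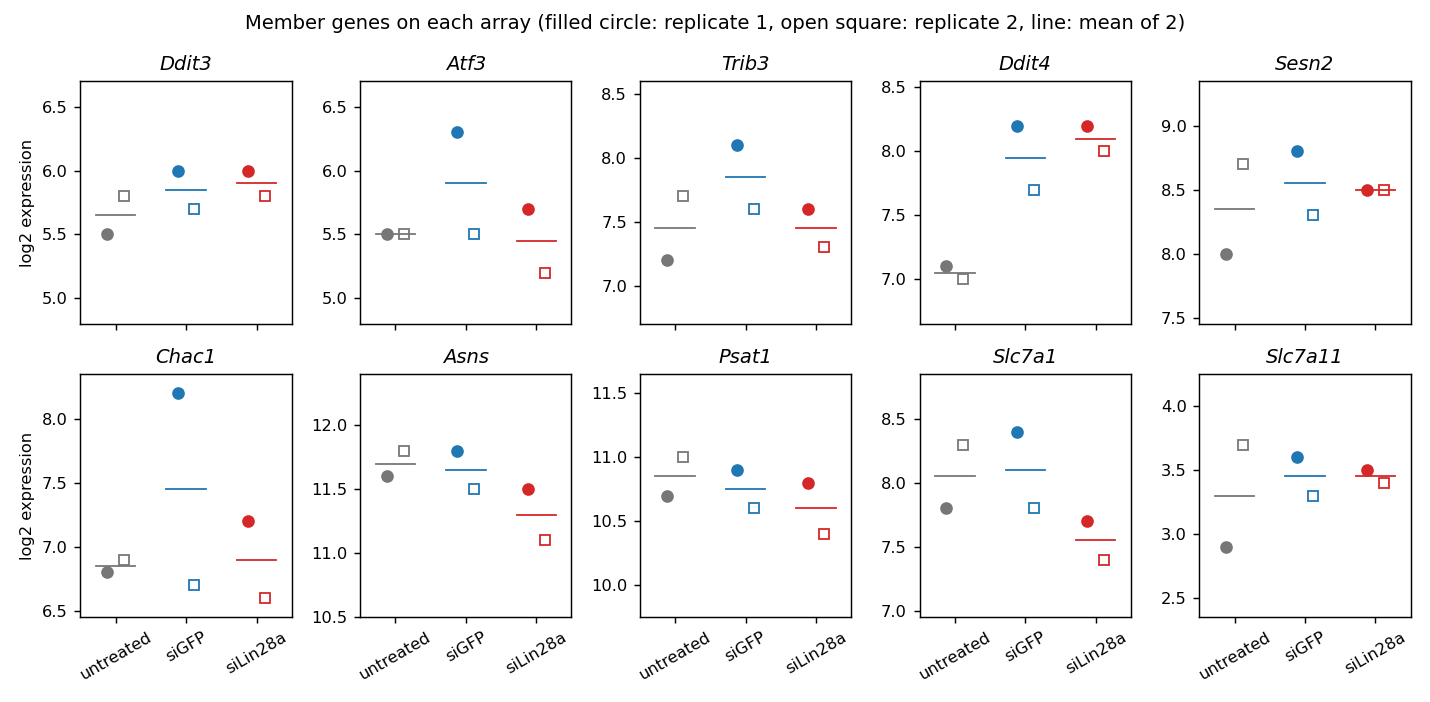
Log2 expression of each member on each array, in panels that all span the same height (filled circles, replicate 1; open squares, replicate 2; lines, group means). Only Ddit4 has all 4 siRNA arrays above both untreated arrays, and Chac1 shows the widest pair, 8.2 and 6.7 in siGFP.

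The 2 arrays of a group differed in the same direction for nearly all members, in both siRNA groups. All 10 members were higher in siGFP replicate 1 than in replicate 2, by 0.3 to 1.5 with a median of 0.50, while 33.7% of the 23410 probe sets were higher and their median difference was −0.10. In siLin28a 9 of 10 were higher in replicate 1 and Sesn2 was equal, with a median of 0.30, against 34.3% of all probe sets. In untreated cells the direction was opposite: 8 of 10 were lower in replicate 1, against 53.4% of all probe sets, Atf3 was equal, and Ddit4 was higher by 0.1, as 31.6% of all probe sets were higher. The members' median difference in untreated cells was −0.30. Among the 10542 probe sets with a mean of at least 6, replicate 1 was higher in 33.8% in untreated cells, 29.3% in siGFP and 19.1% in siLin28a. The highest of the 6 arrays was siGFP replicate 1, alone or tied, for 8 members (20.0% of all probe sets) and alone for 5 (9.21%).

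Set against each gene's own mean over the 6 arrays, the members' median was −0.28 and 0.18 in untreated replicates 1 and 2, 0.42 and −0.10 in siGFP, and 0.08 and −0.31 in siLin28a. The medians of the 2 arrays of a group lay further apart than the groups' averages did. The pooled SD between replicates of this median was 0.32. Members tracked each other across the 6 arrays, with a Pearson r to the mean of the other 9 between 0.551 (Asns) and 0.952 (Trib3) for 9 members, and 0.282 for Ddit4. These correlations are over 6 arrays in 3 groups and are given as descriptions. Members with the promoter match and those without it (5 genes each) both had a median difference of 0.50 between the siGFP arrays. Between the siLin28a arrays the medians were 0.40 with the match and 0.20 without it. Between groups they were 0.40 and 0.20 in siGFP against untreated cells, −0.40 and −0.05 in siLin28a against siGFP, and 0.00 and 0.15 in siLin28a against untreated cells. These are descriptions of 5 genes each, with overlapping ranges, and carry no test.

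**Figure D3:**
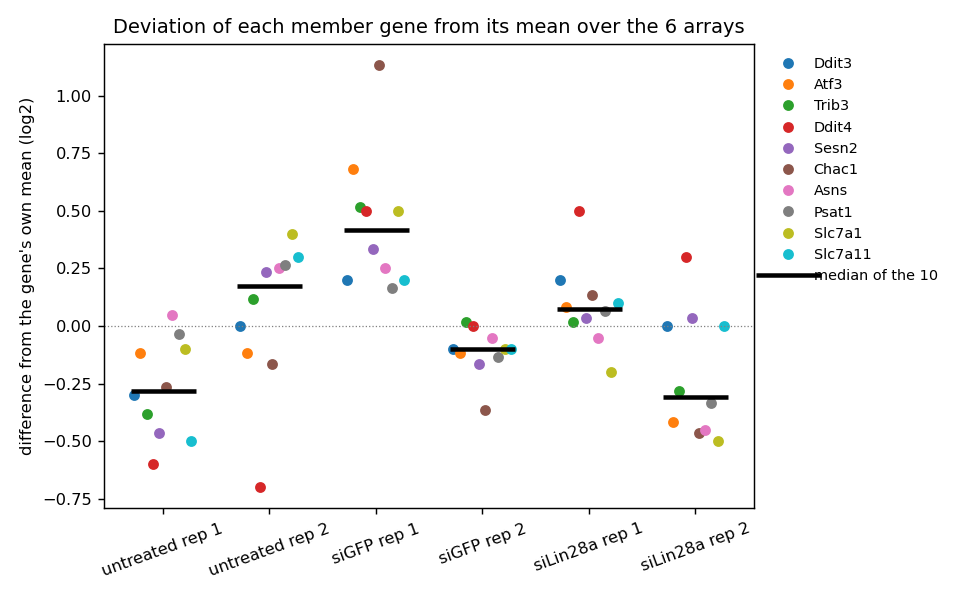
Difference of each member from its own mean over the 6 arrays (log2, points), by array, with the median of the 10 as a black bar. The median is highest in siGFP replicate 1 (0.42) and lowest in siLin28a replicate 2 (−0.31), and Ddit4 is the lowest point on both untreated arrays.

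The comparison of siGFP with untreated cells asks what goes with giving an siRNA. By limma 0 of 10 members passed, as did 0% of the 23410 probe sets, and 1 member, Ddit4, had an unadjusted p under 0.05, against 3.52% of all. Of the members 8 were higher and 2 lower, where 44.4% of all probe sets were higher and 43.1% lower, and the median log2 fold change was 0.20 against 0.00 over all. The arrays of the groups did not overlap for 1 member, Ddit4, with siGFP higher, an arrangement of 9.22% of all probe sets, and for 0 members with siGFP lower (8.46%). Trib3 and Atf3 had 0.40 each (SE 0.24 and 0.29). Ddit3 and Sesn2 had 0.20 (SE 0.17 and 0.27), Slc7a11 0.15, Slc7a1 0.05, Asns −0.05 and Psat1 −0.10. The median rested on single arrays: leaving out replicate 1 of siGFP gave −0.03 and replicate 1 of untreated −0.05, whereas leaving out replicate 2 of siGFP gave 0.40 and replicate 2 of untreated 0.48.

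The comparison of siLin28a with siGFP asks what differs with Lin28a reduced when both groups received an siRNA. None of the 10 members passed by limma (0% of all probe sets), and 0 had an unadjusted p under 0.05, against 4.05% of all. Of the members 7 were lower, 2 were higher and Slc7a11 was equal, where 49.6% of all probe sets were lower and 38.3% higher, and the median was −0.25 against 0.00 over all. Slc7a1 was the 1 member whose arrays did not overlap, with siLin28a lower, as in 11.8% of all probe sets, and 0 members had siLin28a higher without overlap (9.03% of all). Chac1 had −0.55 (SE 0.47), Atf3 −0.45 (SE 0.29), Trib3 −0.40 (SE 0.24) and Asns −0.35 (SE 0.19). Psat1 had −0.15 and Sesn2 −0.05, while Ddit3 had 0.05. The median was 0.08 without siGFP replicate 1, −0.40 without siGFP replicate 2, −0.45 without siLin28a replicate 1 and −0.10 without siLin28a replicate 2. Each of these leaves the replicate numbers unbalanced, and nearly all members were higher in replicate 1 of both groups. Set against each gene's own mean, the members' median was 0.42 in siGFP and 0.08 in siLin28a on replicate 1. On replicate 2 it was −0.10 and −0.31.

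Against untreated cells, siLin28a shows the sum of both steps. It shares the untreated arrays with one of the comparisons above and its own arrays with the other, so it is no independent check of them. By limma 0 of 10 passed (0% of all), and 1, Ddit4, had an unadjusted p under 0.05, against 6.44% of all probe sets. Members were higher in 5 cases and lower in 4 (41.9% and 46.7% of all), Trib3 was equal, and the median was 0.03 against 0.00 over all. Arrays did not overlap for Ddit4 with siLin28a higher (11.1% of all probe sets), nor for Asns and Slc7a1 with siLin28a lower (12.6%). Chac1 was at 0.05 and Atf3 at −0.05, Ddit3 was at 0.25, and Sesn2 and Slc7a11 were at 0.15 each. The median was −0.23 without untreated replicate 1, 0.18 without untreated replicate 2, −0.20 without siLin28a replicate 1 and 0.18 without siLin28a replicate 2. With 2 arrays a group, the smallest p of an exact permutation test is 0.333, so none is given for single genes.

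**Figure D4:**
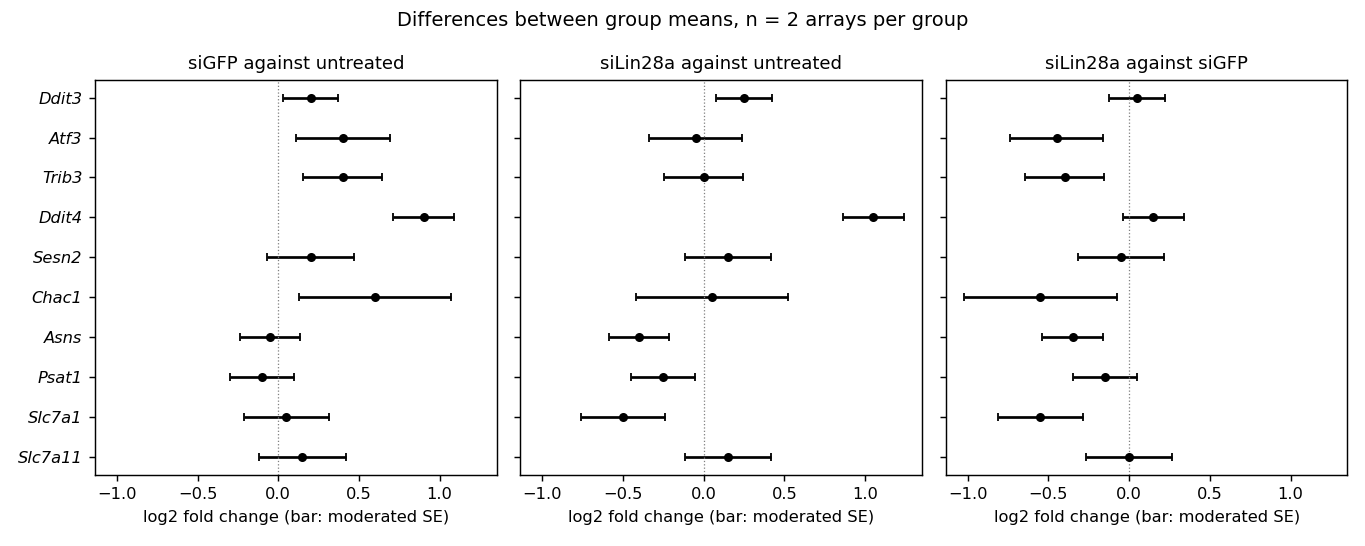
Log2 fold change of each member in the 3 comparisons (points; bars, moderated SE from limma; 2 arrays per group). Ddit4 stands at 0.90 and 1.05 against untreated cells, and no other member is further from 0 than 0.60.

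The other genes of the pathway were read from 5 lists with 52 measured genes. None passed in any comparison by limma. Of the 52, 34 were higher and 12 lower in siGFP than in untreated cells (median 0.10), where 44.4% of all probe sets were higher and 43.1% lower. In siLin28a against siGFP 5 were higher and 41 lower (median −0.15), where 38.3% of all were higher and 49.6% lower. In siLin28a against untreated cells 14 were higher and 29 lower (median −0.08), where 41.9% of all were higher and 46.7% lower. The median over all probe sets was 0.00 in each. Among the 10542 probe sets with a mean of at least 6 it was −0.05 in both siLin28a comparisons and 0 in siGFP against untreated cells. The ER chaperones, a neighbouring list, were also lower in siLin28a than in siGFP in 11 of 15 cases and higher in 1 (median −0.15). Immediate early genes were lower in 6 of 9 cases and higher in 2 (median −0.10). The p53 targets, NRF2 targets and hypoxia genes had medians of 0.10, 0.10 and 0.25 in that comparison. The ES cell markers were lower with siLin28a as well, and 0 passed by limma. All 8 had lower means than in siGFP (49.6% of all probe sets), with a median of −0.33, and 5 were without overlap (11.8% of all). All 8 also had lower means than in untreated cells (46.7% of all), with a median of −0.28, and 6 were without overlap (12.6% of all). Klf4 and Nanog, factors of the ES cell state, were at −0.75 (SE 0.18) and −0.70 (SE 0.19) against siGFP. Their part in the values of the members and of the pathway lists was not tested.

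Of the 14 measured kinases, phosphatase subunits and factors of the pathway, Atf4 itself was at 8.0 and 8.4 in untreated cells, 8.6 and 8.2 in siGFP, and 8.1 and 7.8 in siLin28a. Its mRNA was lower in siLin28a than in siGFP by 0.45 on the log2 scale (SE 0.21, adjusted p 0.953 by limma) without overlap, and the difference from untreated cells was −0.25. ATF4 is controlled mainly through translation, which these arrays do not measure. Eif2ak2 (PKR), the kinase that senses double-stranded RNA, was at 6.4 and 5.1 in untreated cells, 6.3 and 6.0 in siGFP, and 5.6 and 5.9 in siLin28a. The untreated arrays enclosed the siRNA arrays, and the difference was 0.40 (SE 0.40) for siGFP against untreated cells and −0.40 for siLin28a against siGFP. Eif2ak1, the haem-regulated kinase, had −0.25 (SE 0.23) against untreated cells in both siRNA groups, with overlap in each. Eif2b5, a subunit of the exchange factor that phosphorylated eIF2alpha inhibits, was at 0.25 (SE 0.12) in siGFP against untreated cells, without overlap.

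Among 11 enzymes of amino acid and one-carbon synthesis, 9 were higher in siGFP than in untreated cells, led by Cth, which makes cysteine, and Phgdh, which opens serine synthesis, at 0.30 each (SE 0.15 and 0.12), both without overlap. In siLin28a against siGFP 9 of 11 were lower, with the mitochondrial folate enzyme Mthfd2 at −0.40 (SE 0.18) and the alanine transaminase Gpt2 at −0.35 (SE 0.21). Against untreated cells siLin28a had Aldh18a1, which starts proline synthesis, at −0.25 and Gpt2 and Mthfd2 at −0.20 each, all with overlap.

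Of 8 amino acid transporters, 7 were higher in siGFP than in untreated cells, the largest being Slc7a5 (LAT1) at 0.30 (SE 0.25), followed by its partner chain Slc3a2 (SE 0.18) and the glycine transporter Slc6a9 (SE 0.38) at 0.20 each. In siLin28a against siGFP 7 were lower, with Slc1a4 at −0.40 (SE 0.38), Slc7a5 at −0.25 with overlap and Slc7a6 at −0.25 without. Slc7a6 was at −0.35 (SE 0.13, adjusted p 0.705 by limma) in siLin28a against untreated cells, without overlap, and Slc1a4 was at −0.25. Slc1a4 was at 8.6 and 7.6 in siGFP and Slc6a9 at 7.1 and 6.0, so replicate 1 was higher by at least 1.0 in both.

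The 10 measured aminoacyl-tRNA synthetases, which charge tRNAs with amino acids, were lower in siLin28a than in siGFP in 9 cases and equal in 1. Tars1 was at 9.8 and 9.6 in untreated cells, 9.7 and 9.6 in siGFP, and 9.3 and 9.2 in siLin28a. That put it at −0.40 (SE 0.13, adjusted p 0.953 by limma) against siGFP and −0.45 (SE 0.13, adjusted p 0.643 by limma) against untreated cells. Lars1 was at −0.25 against both siGFP and untreated cells (SE 0.14), without overlap, and Yars1 at −0.25 (SE 0.16) against untreated cells, with overlap. Eprs1 was at 0.40 (SE 0.31) in siGFP and 0.25 in siLin28a against untreated cells, with the untreated arrays 1.0 apart, and Cars1 was at 0.15 in siGFP against untreated cells.

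Among the 9 other ATF4 targets, Vegfa, an angiogenic growth factor, was at 7.0 and 7.1 in untreated cells, 7.2 and 6.9 in siGFP, and 6.6 and 6.5 in siLin28a. It was lower in siLin28a by 0.50 (SE 0.14) than in either other group, without overlap (adjusted p 0.953 and 0.643 by limma). Herpud1, a protein of ER-associated degradation, was at −0.40 (SE 0.28) in siLin28a against siGFP. Stc2, a secreted glycoprotein, and Vldlr, a lipoprotein receptor, were each at 0.50 (SE 0.24 and 0.23) in siGFP against untreated cells, and Stc2 was at 0.40 in siLin28a against untreated cells.

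The neighbouring stress lists were read for the same difference between the siGFP arrays. Genes of ER chaperones under ATF6 and XBP1, the other arms of the unfolded protein response, were lower in siGFP replicate 1 than in replicate 2 in 12 of 15 cases (50.8% of all probe sets), with a median of −0.20 where the members had 0.50. In siLin28a 11 of 15 were lower in replicate 1 (49.5% of all). NRF2 targets, the antioxidant set to which Slc7a11 also belongs, were lower in siGFP replicate 1 in 7 of 8 cases, with a median of −0.25. The p53 targets, which overlap the members in known control, had −0.10. Hypoxia genes were higher in siGFP replicate 1 in 5 of 7 cases (33.7% of all), the direction of the members, with a median of 0.10. In siLin28a they went the other way from the members, with 6 of 7 lower in replicate 1 (49.5% of all) and a median of −0.20. Immediate early genes had a median of 0.00 between the siGFP arrays. Among the pathway lists the medians were 0.30 for amino acid synthesis, 0.25 for transporters, 0.20 for the synthetases, 0.30 for other ATF4 targets and 0.05 for the kinases and factors. These are differences between 2 arrays and carry no test.

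**Figure D5:**
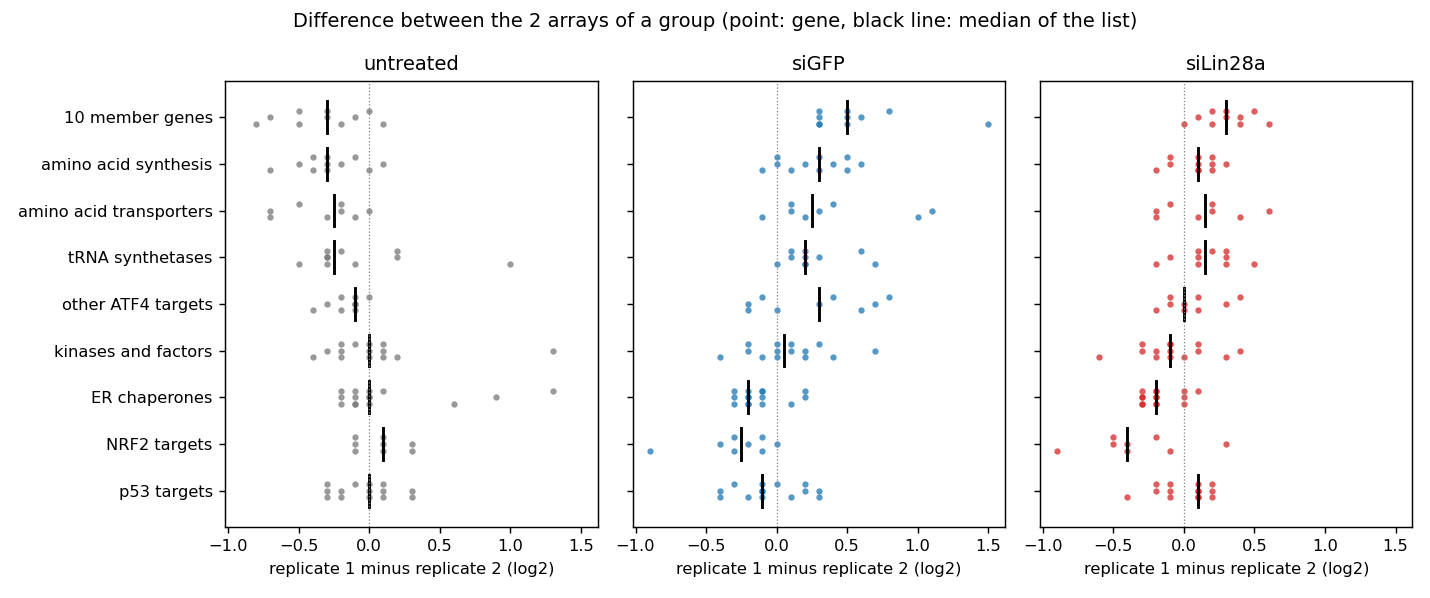
Replicate 1 minus replicate 2 (log2) in each group for the genes of each list (points; black lines, list medians). In siGFP the members lie at 0.3 or above while most ER chaperones and NRF2 targets lie below 0.

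Between groups, the p53 targets were higher in siGFP than in untreated cells in 12 of 14 cases, 8 of them without overlap (9.22% of all probe sets), with a median of 0.35. They were higher in siLin28a than in untreated cells in 11 of 14, 9 of them without overlap (11.1% of all), with a median of 0.45. Hypoxia genes, another known set for Ddit4, were higher in siLin28a than in untreated cells in 6 of 7 cases, 5 of them without overlap (11.1% of all), with a median of 0.35. For comparison, the members had medians of 0.20 and 0.03 in these comparisons, with Ddit4 at 0.90 and 1.05. ER chaperones had 0.20 and 0.05, NRF2 targets 0.08 and 0.10, and immediate early genes 0.10 and 0.00. Whether any of these programmes had a part in the values of Ddit4 was not tested.

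The genes whose pattern over the 6 arrays was most like the members' mean were ranked among 1047 probe sets that spanned at least 0.8 and reached 7. The closest 5 were Pck2, the mitochondrial phosphoenolpyruvate carboxykinase (r = 0.980), Zfp516 (0.961), Herpud1 (0.954), Dync1h1, the heavy chain of cytoplasmic dynein (0.943), and Txnip, an inhibitor of thioredoxin (0.939). Pck2 was at 6.7 and 7.0 in untreated cells, 7.6 and 6.8 in siGFP, and 7.0 and 6.6 in siLin28a. Txnip was at 9.5 and 9.7, 10.7 and 9.5, and 10.2 and 9.5 in the same order. In each of the 5 siGFP replicate 1 was the highest array. The ranking itself selects for this, because the members' mean was highest on that array.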

How the data were processed

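The deposited table holds log2 expression values for 35556 probe sets on 6 arrays. Per the submitters' processing notes the authors made them with Affymetrix Expression Console and RMA (background correction, quantile normalization and summary over probes); for versions and library files, these are not given in the labels. The values come in steps of 0.1, so differences below that are not resolved. A platform annotation names a gene for 23410 probe sets, and these were tested.

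All 6 arrays in 3 groups were fitted with limma 3.58.1 in R 4.3.3 (eBayes without a trend, 3 residual and 3.19 prior degrees of freedom). Tests were two-sided, with Benjamini-Hochberg adjustment over the 23410 probe sets and a threshold of 0.05. Errors are moderated standard errors. The fit was tested on simulated data. Those data had independent scatter and no difference by replicate number, so they do not cover that feature of these arrays. Genes with several probe sets are shown by the brightest. Every member is named, with the 2 largest differences of each pathway list in each comparison (ties included) and the 5 genes most like the members. Tars1 and other synthetases carry older symbols in the annotation and were matched through RefSeq. The members and lists were chosen with earlier results of these data known. Alternatives were other priors, normalizations, filters, a replicate block and leaving out each array.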

Additional observations from a re-analysis of the deposited data

How the results depend on the processing

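Of 471 values of single members under the alternatives, 0 passed an adjusted p of 0.05 by limma, the smallest being 0.172. The count of probe sets called, 0 in each comparison, rose for siLin28a against siGFP to 1 with a robust prior and 1 after cyclic loess, and against untreated cells to 7 and 5; Lin28a was among them in each, and no member was. The direction turned in 22 of the 471, and 20 of these came from leaving out 1 array, in 15 of the 30 values (10 members in 3 comparisons). The other 2 were Sesn2 in siLin28a against siGFP, 0.033 with further quantile normalization and 0.036 after cyclic loess. Only the normalizations and leaving out an array of a compared group can turn a direction. The remaining alternatives leave the fold change as it is, so 22 of 471 understates how readily directions turned. Without 1 array, values that turned ranged as follows. In siLin28a against siGFP they were −1.30 to 0.20 for Chac1, −0.10 to 0.40 for Ddit4, −0.10 to 0.20 for Ddit3, −0.30 to 0.20 for Sesn2 and −0.35 to 0.05 for Psat1. In siGFP against untreated cells they were −0.15 to 1.35 for Chac1, −0.20 to 0.10 for Asns, −0.15 to 0.55 for Sesn2, −0.25 to 0.35 for Slc7a1, −0.25 to 0.55 for Slc7a11 and −0.25 to 0.05 for Psat1. In siLin28a against untreated cells they were −0.25 to 0.35 for Chac1, −0.30 to 0.20 for Atf3, −0.20 to 0.50 for Sesn2 and −0.25 to 0.55 for Slc7a11. The members' median ranged from −0.45 to 0.075 in siLin28a against siGFP, the latter without siGFP replicate 1. The cause was not tested. Labels number the arrays 1 and 2 in each group, and the main fit did not take the numbers as pairs. The differences between replicates 1 and 2 correlated across probe sets at 0.357 for siGFP and siLin28a. The values were 0.154 for untreated and siGFP and −0.04 for untreated and siLin28a. Across probe sets siGFP and siLin28a arrays of the same number correlated at 0.9946 (replicate 1) and 0.995 (replicate 2). The 2 arrays of a group correlated at 0.9931 in siGFP and 0.9941 in siLin28a. What same-numbered siRNA arrays have in common was not tested. With the replicate block, which spanned all 3 groups, 0 probe sets were called in each comparison. The members' medians stayed at −0.25, 0.20 and 0.03. The block cannot move them, because each group has 1 array of each number, so this is no check of pairing.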
